A study of Mus musculus with 6 samples.

Results

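The miR-130 and miR-301 family comprises miRNAs that share a seed, the stretch near the 5′ end through which AGO proteins find complementary sites in mRNAs. Members are processed by Drosha and Dicer from several hairpins, and in each of them the 3p strand is the arm best known as the guide. The family is known for sites in genes of TGF-β and BMP signalling and in regulators of lipid metabolism, and it is expressed in early embryonic and vascular cells. Because members share the seed but not the rest of the sequence, they are predicted to address largely the same genes, and pairing beyond the seed is the sequence difference by which their sites could be told apart.

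The family was read out by AGO2 CLASH, in which a miRNA bound in AGO2 is crosslinked and ligated to the mRNA piece beside it. Each resulting hybrid read names a miRNA and a target gene. The members taken here were all hybrids of mmu-miR-130a-3p, mmu-miR-130b-3p, mmu-miR-301a-3p and mmu-miR-301b-3p (mmu, for mouse, is left out hereafter), 4 of the 298 miRNAs in the data, chosen by name and not by any measured value. They accounted for 781 of 15680 hybrid reads (4.98%) and for 329 of 3200 target genes. Cells were P19, a mouse embryonic carcinoma line. The WT group was Dicer (+/+), and the HM group, Dicer (HM/-), carried E1797G in the RNase IIIb domain on one Dicer1 allele and a loss-of-function frameshift on the other. The HM line was derived by a second round of CRISPR editing in a clonal heterozygous knockout line, so genotype and clonal history cannot be told apart. Both groups received the same AGO2 immunoprecipitation, with 3 biological replicates each. Whether these were separate cultures is not given, so p-values measure the spread between these libraries.

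The mature sequences that RefSeq (GRCm38.p6) gives for the members show what they share and where they part. Capitals mark the seed, bases 2 to 8 counted from the 5′ end.
miR-130a-3p: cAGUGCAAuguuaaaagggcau
miR-130b-3p: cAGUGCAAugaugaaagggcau
miR-301a-3p: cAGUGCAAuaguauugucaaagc
miR-301b-3p was counted by name in the same way. The 3 printed strands had the same first 9 bases. miR-130b-3p differed from miR-130a-3p at 2 positions, U11A and A13G, and was otherwise the same over its 22 nt. miR-301a-3p differed from miR-130a-3p at 10 positions, beginning with G10A, and most of these lay in the 3′ part, where supplementary pairing to a target can occur. In GRCm38.p6 the mature strand of miR-130a-3p lies at chr2:84741116-84741137 on the minus strand, that of miR-130b-3p at chr16:17124071-17124092 on the minus strand, and that of miR-301a-3p at chr11:87113054-87113076 on the plus strand. The Mir301 hairpin is inside the span of Ska2, a gene of the mitotic spindle. The Mir130b and Mir301b hairpins are neighbours 257 bp apart within the span of 2610318N02Rik, so these members can come from a single primary transcript. In the hybrids, the miRNA part began with the RefSeq first 8 bases, undetermined bases allowed, in 99.2% of entries of miR-130a-3p, 95.5% of miR-130b-3p and 99.7% of miR-301a-3p. Nearly all reads named by these 3 members therefore carried the seed printed above.

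Libraries held 1621 to 5341 hybrid reads, of which 701 to 5113 were from 3p-miRNAs. Where a count is 0, up to 3 reads could have been missed (0.0587% of 3p hybrids in the deepest and 0.428% in the shallowest library), and intervals and floors cover counting error only. All 7 pluripotency miRNAs of a fixed list (miR-302, miR-367 and miR-290 families) were present in every library, at 61.8% to 63.2% of 3p hybrids in WT and 55.3% to 57.5% in HM. None of 9 miRNAs that mark liver, neurons, muscle, blood or endothelium had a read. The first HM library matched the second in miRNA counts within sampling noise (chi-square p = 0.957 over miRNAs). So did WT libraries 1 and 2 (chi-square p = 0.187) and HM libraries 1 and 3 (chi-square p = 0.189). Of the distinct sequences of HM library 1, 5.02% were also in HM library 2 and 2.73% in HM library 3. All libraries were kept apart. The 5p arms of the family were nearly without hybrids. miR-301a-5p had 1 read each in WT libraries 2 and 3 and 0 in every HM library, and the other 3 arms had 0 of 15680 reads.

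The first question was whether the family as a whole held a different part of the hybrids in HM cells. WT libraries 1 to 3 held 69, 85 and 69 family reads, and the HM libraries held 99, 308 and 151. As a share of 3p hybrids this was 7.53%, 7.79% and 9.84% in WT and 6.25%, 6.02% and 5.66% in HM. Every HM library was below every WT library, as for 22.4% of 58 single 3p-miRNAs. WT library 3, the highest, had a 95% exact binomial interval of 7.74% to 12.3%. The mean was 8.39% ± 1.27 in WT and 5.98% ± 0.298 in HM (SD, n = 3 each), a difference of -2.41 percentage points with p = 0.1 in the two-sided exact permutation test, the smallest p that 3 against 3 libraries allow.

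The direction depended on the denominator. As a share of all hybrids, the family stood at 3.58%, 3.65% and 4.26% in WT and at 5.96%, 5.77% and 5.399% in HM, so that here every HM library was above every WT library, as for 50.0% of 58 single 3p-miRNAs. The means were 3.83% ± 0.374 and 5.71% ± 0.285 (SD, n = 3 each; two-sided exact permutation p = 0.1). The 5p-miRNAs, which depend on RNase IIIb for their cut, made up 911 to 1233 reads of each WT library but 70 to 194 of each HM library. In edgeR's quasi-likelihood test with the 4 members summed, the log2 fold change (HM over WT) came to -0.47 (SE 0.15, adjusted p = 0.00365) on 3p totals and 0.58 (SE 0.14, adjusted p = 5.66e-05) on all-hybrid totals. Scaling by TMM gave -0.092 (adjusted p = 0.581), and DESeq2 with its own size factors gave 0.42 (adjusted p = 0.00407). No direction of change that holds on every scale can therefore be given for the summed family.

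**Figure D1:**
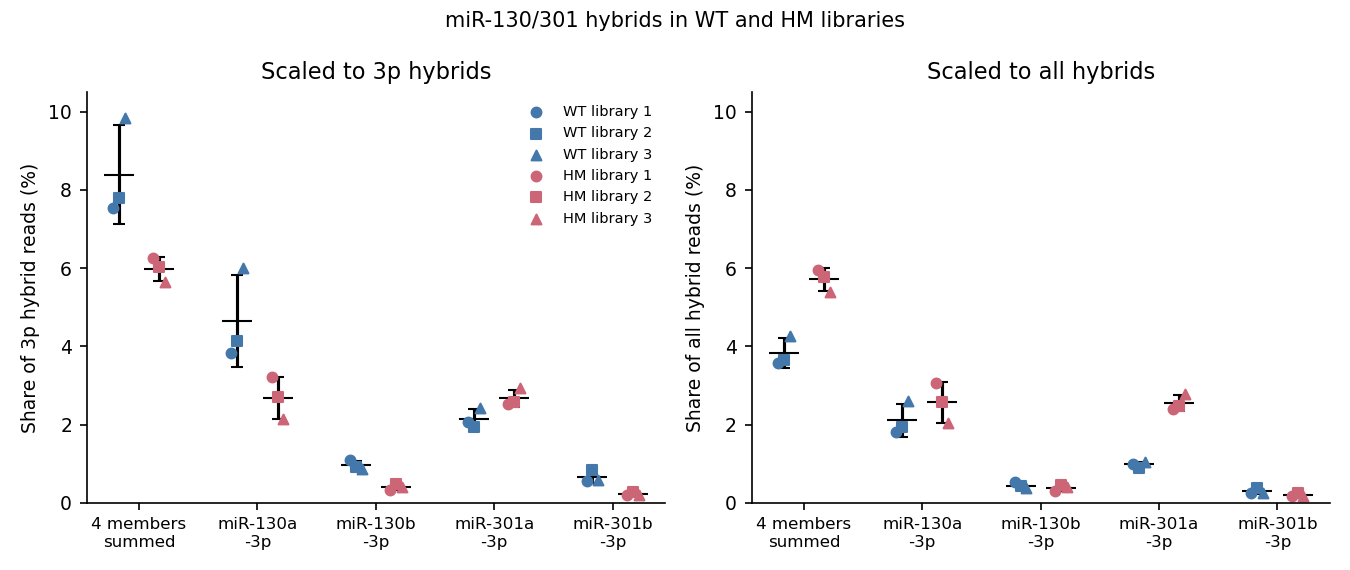
Share of hybrid reads (%) of the 4 members summed and of each member, in WT (blue) and HM (red) libraries, as a percentage of 3p hybrids (left) and of all hybrids (right). Points are single libraries, with marker shape giving the replicate number, and bars are the mean and SD of 3 libraries. The summed family lies lower in all 3 HM libraries on the left and higher in all 3 on the right, whereas miR-301a-3p is the member whose HM points lie above its WT points in both panels.

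The members did not move together. Reads of miR-130a-3p numbered 35, 45 and 42 in the WT libraries against 51, 138 and 57 in the HM libraries. It was the most abundant member in every WT library and in HM libraries 1 and 2. In HM library 3 miR-301a-3p led. On 3p totals the log2 fold change of miR-130a-3p was -0.78 (SE 0.20, edgeR adjusted p = 0.000251). The share of miR-130a-3p among 3p hybrids did not overlap between genotypes, at 3.82%, 4.12% and 5.99% in WT and 3.22%, 2.70% and 2.13% in HM.

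For miR-301a-3p the WT libraries gave 19, 21 and 17 reads and the HM libraries 40, 132 and 78. It was the one member whose share of 3p hybrids was higher in every HM library, at 2.07%, 1.92% and 2.43% in WT against 2.52%, 2.58% and 2.92% in HM. Of 58 3p-miRNAs tested, 34.5% had all HM libraries above all WT libraries on this scale. The log2 fold change of 0.34 (SE 0.24) did not pass the test on 3p totals (edgeR adjusted p = 0.202) and was 1.39 (SE 0.22, adjusted p = 1.81e-09) on all-hybrid totals.

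The clustered pair, miR-130b-3p and miR-301b-3p, was scarce. The WT libraries held 10, 10 and 6 reads of miR-130b-3p and the HM libraries 5, 24 and 11, for which edgeR gave -1.17 on the log2 scale with 3p totals (SE 0.42, adjusted p = 0.00963). Those of miR-301b-3p were 5, 9 and 4 against 3, 14 and 5, for which edgeR gave -1.49 (SE 0.50, adjusted p = 0.00605). Neither overlapped between genotypes as a share of 3p hybrids, nor did miR-130a-3p, and 22.4% of the 58 3p-miRNAs tested had all HM libraries below all WT libraries. At these counts the calls did not hold without every library, although both members stayed lower in HM when any single library was left out. By edgeR miR-130b-3p was at -1.08 without WT library 1 (adjusted p = 0.0705) and -1.21 without WT library 2 (0.0589), and miR-301b-3p was at -1.24 without WT library 2 (0.169).

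On 3p totals 3 of the 4 members were thus called lower in HM cells, where 43.6% of all 94 miRNAs tested and 15.5% of the 58 3p-miRNAs tested were called lower. On all-hybrid totals 1 of the 4, miR-301a-3p, was called higher, against 51.7% of the 58 3p-miRNAs. The paper reports a miRNA cluster that was silenced in the HM line, calls this a clonal effect and left the cluster out of most main figures. No miRNA was left out here, so any hybrids of that cluster are in these totals and shares. The median log2 fold change of the 58 3p-miRNAs was 0.20 on 3p totals and 1.204 on all-hybrid totals. A change of library size shifts all miRNAs by a similar amount, so places relative to that median are alike across scales by construction. miR-301a-3p was 0.14 and 0.19 above the median, miR-130a-3p was at -0.99 and -0.93, miR-130b-3p at -1.38 and -1.33, and miR-301b-3p at -1.69 and -1.65. By TMM, in the same order, the values were 0.16, -0.96, -1.35 and -1.67, and by DESeq2 0.071, -1.05, -1.47 and -1.78.

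The share of each member among family hybrids does not depend on the library total. miR-301a-3p made up 27.5%, 24.7% and 24.6% of family reads in WT and 40.4%, 42.9% and 51.7% in HM. The groups did not overlap, and the means were 25.6% ± 1.65 and 45.0% ± 5.92 (SD, n = 3 each; difference 19.3 points, two-sided exact permutation p = 0.1, 0.133 after Benjamini-Hochberg adjustment over the 4 members). miR-130a-3p was at 54.8% ± 5.33 in WT and 44.7% ± 6.88 in HM (SD, n = 3 each), and its groups overlapped (exact permutation p = 0.2). The scarce pair was lower in HM without overlap, with miR-130b-3p at 11.7% ± 2.90 and 6.71% ± 1.46 and miR-301b-3p at 7.88% ± 2.46 and 3.63% ± 0.806 (SD, n = 3 each; exact permutation p = 0.1 for either). With family hybrids as the library size in edgeR, a scale added after seeing the data, miR-301a-3p rose by 0.81 on the log2 scale (SE 0.24, adjusted p = 0.00207). On this scale 20.2% of all 94 miRNAs tested were called higher, a set not limited to 3p-miRNAs. The share among 3p-miRNAs alone was not calculated. The other 3 members were at -0.31, -0.71 and -1.03 and did not pass.

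**Figure D2:**
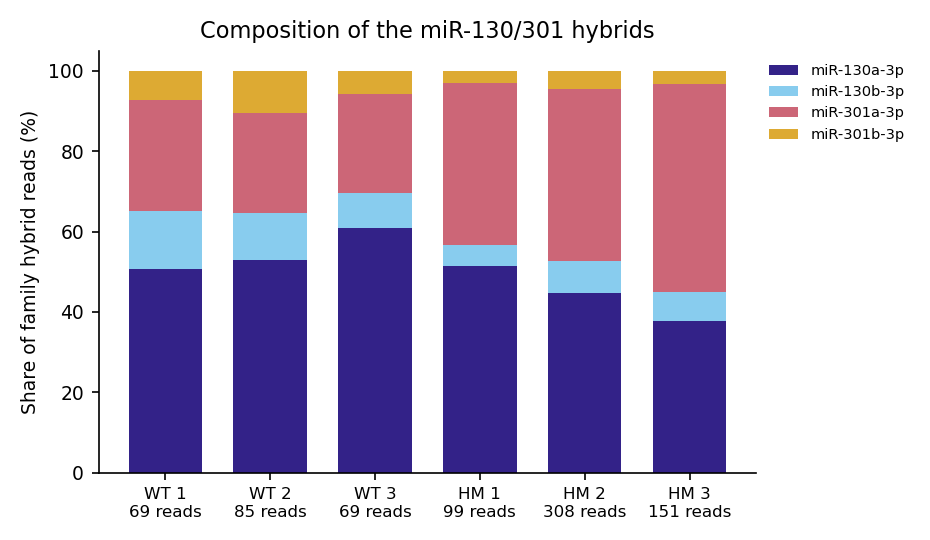
Share of family hybrid reads (%) taken by each of the 4 members in the 6 libraries, with the family reads of each library under its name. The miR-301a-3p segment takes 24.6% to 27.5% of the WT bars and 40.4% to 51.7% of the HM bars.

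The next question was what the family bound. Target fragments were searched on the mRNA strand for the complement of seed bases 2 to 7, TGCACT. A site was an 8mer (TTGCACTA) with base 8 paired and an A after the seed match, a 7mer-m8 (TTGCACT) with base 8 paired, a 7mer-A1 (TGCACTA) with the A alone, or a 6mer. The motif was in 84.6% of the 781 family reads, and in 9.55% of the 11295 reads of all other 3p-miRNAs. By class, 40.5% of family reads had an 8mer, 26.5% a 7mer-m8, 12.8% a 7mer-A1 and 4.87% a 6mer. A further 1.54% had an offset 6mer (TTGCAC, bases 3 to 8), and 13.8% had none of these. The 8mer was thus the most common class for the family, while in other 3p hybrids it was in 0.478% of reads. The authors kept only pairs that TargetScan predicts, which requires a seed site somewhere in the 3′ UTR of the gene, so the gene was chosen for such a site although the position of the fragment was not. Fragments had a median of 23 nt, and the motif began at a median position of 12 from their 5′ end.

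Members differed in how often a seed match was found. It was in 90.5% of reads of miR-130a-3p, 78.8% of miR-130b-3p, 81.1% of miR-301a-3p and 67.5% of miR-301b-3p, the last of 40 reads. Within each library the reads of miR-301a-3p and miR-301b-3p together had the lower share. In WT libraries 1 to 3 it was 83.3%, 66.7% and 66.7%, against 91.1%, 90.9% and 91.7% for miR-130a-3p and miR-130b-3p together. In HM libraries it was 74.4%, 86.3% and 77.1%, against 89.3%, 88.3% and 83.8%. The difference was negative in 6 of 6 libraries, with a mean of -13.4 ± 9.60 percentage points (SD, n = 6) and p = 0.03125 in the two-sided exact sign-flip permutation test, the smallest that 6 libraries allow. It was smallest in HM library 2, the deepest, at -1.97 points. This test, and the energy test below, were chosen after seeing the data.

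The genotypes were then compared in seed share. Family reads with the motif were 88.4%, 82.4% and 84.1% in WT and 82.8%, 87.3% and 80.1% in HM, and the groups overlapped (84.9% ± 3.12 and 83.4% ± 3.64, SD, n = 3 each; two-sided exact permutation p = 0.6). The sign of this difference turned without WT library 1 (0.23 points) or HM library 3 (0.14 points). 8mer sites alone stood at 46.4%, 47.1% and 44.9% in WT and 31.3%, 39.3% and 40.4% in HM. These groups did not overlap (difference -9.12 points, exact permutation p = 0.1, the lowest of 4 site measures compared, with no adjustment).

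**Figure D3:**
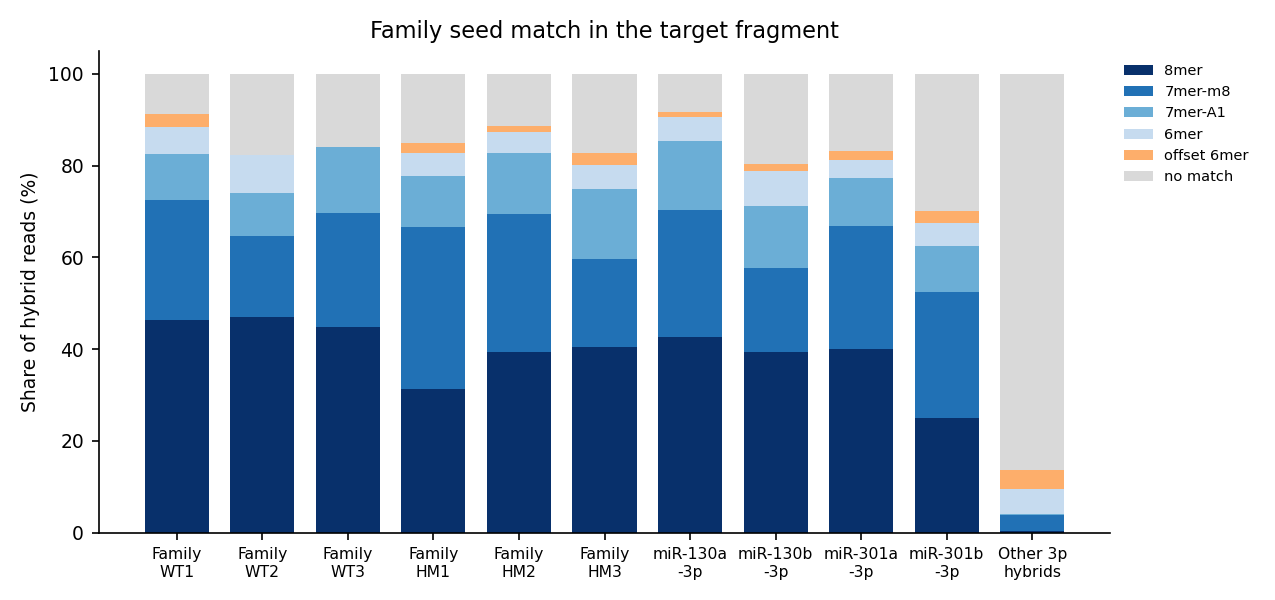
Share of hybrid reads (%) whose target fragment holds each class of match to the family seed, from 8mer (dark blue) to no match (grey), for the family in each of the 6 libraries, for each member over all libraries, and for all other 3p hybrids. Between 80.1% and 88.4% of family reads per library have at least the 6mer, compared with 9.55% of other 3p hybrids.

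The 781 reads spread over 329 genes, and 53.2% of these genes had 1 read. The 20 genes with most reads held 30.5% of family reads. Of the 154 genes with more than 1 read, 110 (71.4%) had reads from 2 or more members. By number of members, 219 genes had 1, 86 had 2, 19 had 3 and 5 had all 4. The 5 genes bound by every member were Adnp, Ccnd3, Ddx6, Lifr and Mat2b. miR-130a-3p and miR-301a-3p, the members with most reads, had 76 genes in common, 38.2% of the 199 genes of miR-130a-3p and 41.8% of the 182 of miR-301a-3p. Overlaps at this depth are limited by the many genes with a single read.

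Sharing extended to the position within the 3′ UTR. Fragments of a gene that shared at least 12 nt of sequence were joined into sites, which gave 420. Of these, 119 were covered by more than 1 distinct hybrid sequence, and 78 of the 119 (65.5%) had 2 or more members. A site counted as having a seed match if any of its fragments had one, a rule that favours sites with more fragments. By this rule a seed match was in 94.96% of the 119 repeated sites and in 65.8% of the sites seen once. Only 72 of the 329 genes had more than 1 site.

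Sites of 8 genes with at least 10 reads are printed 5′ to 3′ as the fragments give them, with the seed match in capitals, because the bases upstream of it, which face the 3′ part of the miRNA, differ between sites that members share and sites that 1 kind of member dominates.
Mat2b: aaacgatgctgTTGCACTAggg
Lifr: tttgttgtgtTTGCACTAagg
Chst1: tgcccctgaaatTTGCACTAtg
Tfrc: attggaagttTTGCACTtatg
Vgll4: ctgtcctgatTTGCACTAcgga
Jarid2: aagctgtctTTGCACTAgct
Kmt2a: ttccttcttaTTGCACTgtgt
Clcn3: ttcataacTTGCACTAaatgt
All 9 genes with at least 10 reads had a dominant site, and 6 of those sites were 8mers. Mat2b, the regulatory subunit of methionine adenosyltransferase, led with 31 reads, all at the site above, of which 18 came from miR-301a-3p and 7 from miR-130a-3p. It was read 4, 6 and 0 times in WT and 2, 13 and 6 times in HM. The family made up 75.6% of all hybrid reads on Mat2b. Lifr, the receptor subunit for LIF, which sustains mouse pluripotent cells, had 26 family reads, 24 at the printed site, with 12 each from miR-130a-3p and miR-301a-3p. The family was a minor binder there, with 19.3% of the 135 hybrid reads of the gene.

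Chst1, a keratan sulfate sulfotransferase, had 20 reads, all at 1 site and all hybrids of that gene, with 15 from miR-130a-3p. Tfrc, the transferrin receptor for iron uptake, had 17 reads from all 6 libraries, 8 each from miR-130a-3p and miR-301a-3p. Ccnd3, cyclin D3 of the G1 phase, had 16 reads, 12 of them from miR-130a-3p and miR-130b-3p, at a 7mer-A1 site. Vgll4, a cofactor that competes with YAP for TEAD factors, also had 16 reads, of which 14 came from those same members. On both genes the family was the main binder, with 88.9% of their hybrid reads.

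Chromatin regulators were next in the order. Jarid2, a component of Polycomb repressive complex 2, had 12 reads, from 3 members. Kmt2a, a histone H3 lysine 4 methyltransferase, had 11 reads, 10 from miR-130a-3p, 1 from miR-130b-3p and 0 from the miR-301 members. They were 8.73% of the 126 hybrid reads of Kmt2a. Clcn3, an endosomal chloride and proton exchanger, had 10 reads, but 5 of them were 1 hybrid sequence in WT library 3, which may be copies of 1 molecule since the treatment of duplicates is not given in the sources used here.

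The genes after these in the order had 6 to 9 reads each. Ddx6, an RNA helicase of the machinery that silences miRNA targets, had 9 from all 4 members. Lonrf1 had 9 and Irf1, an interferon-responsive transcription factor, had 8, which were all the hybrids of these genes. Smarcd2, a subunit of the BAF chromatin remodelling complex, had 8. Cdv3, Uba3 (the NEDD8-activating enzyme) and Zfp91 had 7 each. Dsel (a dermatan sulfate epimerase-like protein), Ppargc1b (a transcriptional coactivator) and Psap (the saposin precursor) had 6 each. Dsel had 1 read in every library and all 6 were from miR-130a-3p. Adnp, a chromatin-associated homeobox protein bound by all 4 members, had 5 reads at 4 sites and 0 with the seed motif.

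**Figure D4:**
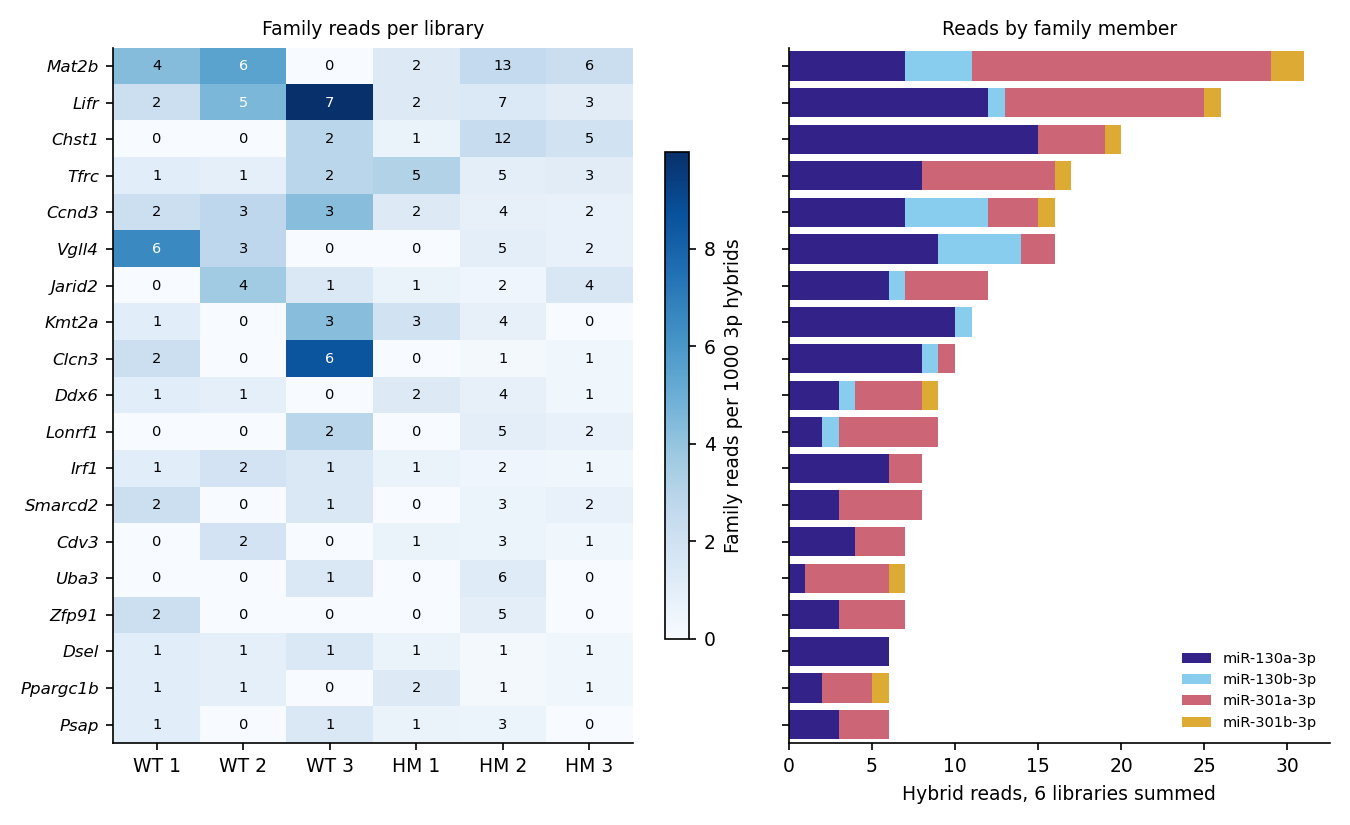
The 19 genes with most family reads. Left, family reads in each of the 6 libraries (numbers), coloured by reads per 1000 3p hybrids. Right, the same reads summed over libraries and split by member. miR-301a-3p has 18 of 31 reads on Mat2b and none of 11 on Kmt2a, and Lifr and Clcn3 are darkest in WT library 3.

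Calculated pairing of fragments was then compared between the kinds of member. Whole sequences were used and the seed was not held paired, so pairing beyond the seed was not measured separately. For every family fragment the duplex energy was calculated with the sequence of miR-301a-3p and with that of miR-130a-3p, whichever miRNA it had been joined to, and the difference was taken. A negative value means stronger calculated pairing with miR-301a-3p. Fragments joined to miR-130a-3p or miR-130b-3p had mean differences of 1.48, 1.53 and 1.94 kcal/mol in the WT libraries, against 1.33, 1.41 and 1.22 kcal/mol in the HM libraries. Fragments joined to miR-301a-3p or miR-301b-3p had -1.60, -1.73 and 0.29 in WT and -0.27, -1.001 and -0.26 in HM. Within each of the 6 libraries, fragments were on average better matched to the kind of member they were joined to than those of the other kind were. The contrast was -2.25 ± 0.788 kcal/mol (SD, n = 6), negative in 6 of 6 libraries (two-sided exact sign-flip permutation p = 0.03125, the smallest possible and the same after adjustment over this test and that of seed share).

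The contrast was -2.02 without Mat2b, Lifr and Chst1, the 3 genes with most reads, and -2.31 among fragments with a seed match. It was -2.32 with miR-130a-3p and miR-301a-3p alone and -2.22 with each distinct sequence counted once. When the first 3 nt of each fragment, which could hold bases added to the miRNA end, were left out, it was -1.50. All 5 alternatives, added after seeing the data, were negative in 6 of 6 libraries. Values of the genotypes overlapped (HM minus WT 0.83 kcal/mol, two-sided exact permutation p = 0.2). Fragments were searched with the RefSeq sequences, and trimmed or tailed miRNA ends were not modelled.

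Single genes show the contrast. At Mat2b the mean difference was -8.55 kcal/mol, and 64.5% of its reads were from miR-301 members. At Chst1 it was 8.41 with 25.0% and at Vgll4 5.65 with 12.5%, where reads were mostly from miR-130 members. In the sites above, Chst1 has the letters GCCCCT and Vgll4 the letters GTCCT upstream of the seed match, in a stretch that faces the purine-rich 3′ part of miR-130a-3p. Mllt6, named after its values were seen, had the highest difference (10.2 kcal/mol) and 5 reads, all from miR-130a-3p. Not every gene followed the contrast. Exceptions included Dsel, with a difference of -1.58 kcal/mol but no reads from miR-301 members. Ddx6 was at 1.33 kcal/mol with 55.6% of reads from miR-301 members. Ldhb, also named after its values were seen, was at 1.58 kcal/mol with 60.0%. Over the 28 genes with at least 5 reads, the share of miR-301 members and the mean difference had Pearson's r = -0.60 and Spearman's rho = -0.60. This is across genes whose fragments come from the same 6 libraries, and genes are not independent replicates.

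**Figure D5:**
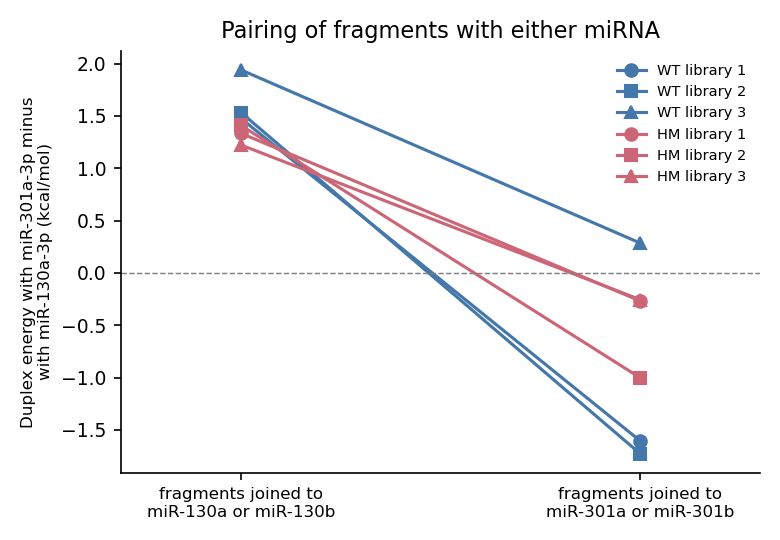
Mean difference in calculated duplex energy (kcal/mol, with miR-301a-3p minus with miR-130a-3p) of target fragments joined to miR-130 members (left) and to miR-301 members (right). Each line is 1 library (WT blue, HM red), and all 6 lines go down from between 1.22 and 1.94 to between -1.73 and 0.29.

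Family binding of single genes was compared between genotypes with the 4 members merged, among 144 miRNA-gene pairs with at least 10 reads. Of the 9 family pairs tested, 2 were called lower in HM and 0 higher on 3p totals, against 13.9% called lower among the 144. The 144 were not limited to pairs of 3p-miRNAs, and 5p hybrids were scarcer in HM. Shares among pairs of 3p-miRNAs alone were not calculated. Lifr was read 2, 5 and 7 times in WT and 2, 7 and 3 times in HM, which is 2.18, 4.58 and 9.99 per 1000 3p hybrids against 1.26, 1.37 and 1.12. The groups did not overlap, as for 14.6% of the 144 pairs, and the log2 fold change was -1.98 (SE 0.64, edgeR adjusted p = 0.0167). Clcn3 was read 2, 0 and 6 times in WT and 0, 1 and 1 times in HM. Its log2 fold change was -3.51 (SE 1.09, edgeR adjusted p = 0.0129), but its groups overlapped at 0, and 5 of the 8 WT reads were the 1 sequence in WT library 3. The ratio of summed rates, HM over WT, was 0.0723 (95% exact interval 0.00748 to 0.362, counting error only), and without WT library 3 it was 0.214 (0.0155 to 2.96).

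Neither call held on every scale or without every library. On all-hybrid totals 0 of the 9 family pairs were called (22.2% of the 144 were), with 2 at an unadjusted p under 0.05, and Lifr was at -0.94 (edgeR adjusted p = 0.255) and Clcn3 at -2.53 (0.105). TMM in edgeR and DESeq2 also called 0 family pairs, where 19 and 13 of the 144 were called. Family pairs at an unadjusted p under 0.05 numbered 2 and 1. Without WT library 3 both were smaller and did not pass, with Lifr at -1.41 (edgeR adjusted p = 0.208) and Clcn3 at -1.98 (0.762). The adjusted p of Lifr was also above the threshold without WT library 2 (-2.10, 0.0521), HM library 2 (-2.08, 0.0774) or HM library 3 (-1.93, 0.0729), where its size was about the same. For Clcn3 this was so without WT library 1 (-3.77, 0.113) or HM library 2 (-3.31, 0.0755). Ccnd3 was the other tested gene without overlap, at 2.18, 2.75 and 4.28 per 1000 3p hybrids in WT and 1.26, 0.782 and 0.749 in HM, and did not pass (log2 fold change -1.71, SE 0.83, edgeR adjusted p = 0.168). Vgll4 was read 6, 3 and 0 times in WT and 0, 5 and 2 times in HM (adjusted p = 0.0733). The remaining 5, Chst1, Jarid2, Kmt2a, Mat2b and Tfrc, had edgeR adjusted p-values from 0.530 to 0.972.

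The number of distinct genes was compared at equal depth. Set to 69 family reads, WT libraries had 53.0, 53.7 and 49.0 expected genes and HM libraries 60.6, 58.3 and 59.0. The groups did not overlap (51.9 ± 2.52 and 59.3 ± 1.15, SD, n = 3 each; difference 7.40, two-sided exact permutation p = 0.1). WT and HM had 83 genes in common, 61.0% of the 136 genes found in WT and 30.1% of the 276 found in HM, where family reads were more numerous.

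Genes for which the family is best known had fewer than 10 family reads each. Over all genes, 329 of the 3200 with any hybrid (10.3%) had family hybrids. Of 26 known targets listed from general knowledge, 13 had a hybrid with any miRNA and 9 had family hybrids, with 23 reads in all (9 in WT, 14 in HM). Among them were Irf1 with 8 reads, the endosomal GTPase Rab5a with 2, and Tgfbr1, Smad5, Acvr1, Bmpr2 and E2f7 with 1 each. Of 39 genes of TGF-β and BMP signalling, 22 had a hybrid with any miRNA and 7 had family hybrids, with 11 reads, 1 in WT and 10 in HM. Family reads over all genes numbered 223 in WT and 558 in HM, and the split within this list was not tested. Among receptors, Acvr2a had 2 reads and Tgfbr1, Acvr1 and Bmpr2 had 1 each. Inside the cell, the corepressor Skil had 4 reads, and the signal transducer Smad5 and the ubiquitin ligase Smurf2 had 1 each. No pair of either list reached 10 reads, so 0 were tested, and at this depth a change in them was not detectable.

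miR-19a-3p and miR-19b-3p have a seed that overlaps that of the family by 1 shifted base. The miR-19 7mer-m8 (TTTGCAC) and the family 7mer-m8 (TTGCACT) share TTGCAC, and 36.6% of family reads held TTTGCAC. The family and miR-19 had 76 genes in common, 23.1% of the family's 329 and 19.1% of the 397 of miR-19. At the level of sites the overlap was smaller, with 34 of the 420 family sites (8.10%) also covered by miR-19. On 3p totals miR-19b-3p, with 808 reads, rose by 0.43 on the log2 scale (SE 0.16, edgeR adjusted p = 0.0155), and miR-19a-3p, with 71 reads, was at -0.34 (SE 0.43, adjusted p = 0.501).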

How the data were processed

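AGO2 CLASH libraries came from 3 WT and 3 HM biological replicates of P19 cells, grouped and numbered by sample titles. The deposited table gives the read count of each distinct hybrid sequence per library, without scaling. The authors named miRNAs with QuagmiR, mapped target fragments to 3′ UTRs of coding genes with Bowtie2 and kept pairs predicted by TargetScan 8.0. Which releases of Bowtie2 and QuagmiR and which genome build were used, whether PCR duplicates were removed and how multiply mapped fragments were treated are not given in the sources used here. If duplicates remain, reads are not independent molecules, although 98.4% of the 765 family entries had 1 read. Mapping to 3′ UTRs leaves out fragments from elsewhere.

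Reads were summed per library, miRNA and gene. Shares were compared by two-sided exact permutation tests over libraries. miRNAs, and pairs with the 4 members merged, with at least 10 reads were tested in edgeR 4.0.16 (R 4.3.3; quasi-likelihood, Benjamini-Hochberg at 0.05), with 3p totals as library size. Intervals were exact binomial at 95%. Energies came from RNAduplex (ViennaRNA 2.7.2) and plots from matplotlib 3.10.9, with Python 3.11.15, numpy 2.4.6, pandas 2.3.3 and scipy 1.17.1. Distinct genes were set to 1 depth by analytic rarefaction. Fits were tested on simulated counts with 4-fold changes put in. They recovered 15 of 22 changed miRNAs with 3 false calls, and 14 of 30 changed pairs with 1 false call. Alternatives were all-hybrid totals, TMM, DESeq2 1.42.0, other read minima, each sequence counted once, members kept apart, a replicate block and leaving out each library. Genes named were the 20 with most family reads, those with all 4 members, called pairs, and members with reads of 2 lists from general knowledge. Of 329 gene names, 303 matched the RefSeq table (GRCm38.p6) as symbols and 20 as synonyms. The members, lists and scales were chosen with earlier results of these data known. A few named items are not reported here.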

Additional observations from a re-analysis of the deposited data

How the results depend on the processing

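The difference in family share reversed from -2.41 to 1.88 points on all-hybrid totals, and the difference in seed-match share (-1.51 points) ranged from -3.46 to 0.23 without single libraries. The log2 fold change of miR-130a-3p turned to 0.27 on all-hybrid totals and 0.060 by DESeq2, and lost its call by TMM (-0.35) and family totals (-0.31). miR-130b-3p lost its call on all-hybrid totals (-0.13), TMM (-0.74), DESeq2 (-0.35) and family totals (-0.71), and miR-301b-3p likewise (-0.45, -1.06, -0.67 and -1.03). miR-301a-3p was called higher on the same scales (1.39, 0.77, 1.19 and 0.81). These scales differ by construction in which hybrids set the library size, and neither 3p totals nor family totals hold 5p hybrids. What moved each call was not tested. Without single libraries the values ranged from -0.89 to -0.60 for miR-130a-3p, -1.34 to -1.08 for miR-130b-3p, 0.26 to 0.42 for miR-301a-3p and -1.77 to -1.24 for miR-301b-3p.

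Called miRNAs numbered 56, and 35 with at least 30 reads, where fewer were tested. Called pairs numbered 22, with 13 by DESeq2, 3 with at least 30 reads and 11 to 20 without single libraries. Called family pairs numbered 2, with 0 on all-hybrid totals, by TMM, by DESeq2, with no minimum and with at least 30 reads, 1 with each sequence counted once, 1 with members kept apart and 0 to 2 without single libraries. The cause of each loss was not tested.

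Replicate numbers were not taken to pair the samples. Deviations of same-numbered libraries correlated at 0.11, -0.049 and 0.082, and those of differently numbered libraries at -0.13 to 0.059. Such low values cannot settle whether libraries were paired. With the replicate block the members were at -0.78, -1.20, 0.33 and -1.56 with the same calls, 13 pairs were called and 0 family pairs. Summing HM libraries 1 and 2 to 1 library, added after seeing the data, left 3 members and 2 family pairs called. Depth limits what single genes can show, since only 9 of 329 genes reached 10 family reads.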
